A study of Arabidopsis thaliana with 24 samples.

Results

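Transcripts of the Arabidopsis mitochondrial genome were followed in roots moved to a solution without phosphate (Pi) or with it. Of 22746 probe sets tested on the array, 29 named exactly 1 mitochondrial locus (an ID that starts with ATMG) and were taken as members, and they stood for 29 different loci. The plants were Arabidopsis thaliana, with no ecotype or mutant given in the labels, grown in nutrient solution to an age of 30 days. Roots were harvested 0, 1, 6 or 24 h after transfer to solution with 0 mM Pi (minus Pi roots) or 1.5 mM Pi (plus Pi roots), each time from about 20 plants. All plants had grown with 1.5 mM Pi and shared a short EDTA wash before transfer, so the plus Pi roots are transferred plants too. The whole experiment was run 3 times, which gave 24 arrays in 8 groups of 3.

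Mitochondria carry a small genome of their own, which encodes part of the respiratory chain, while most mitochondrial proteins are encoded in the nucleus and imported. Mitochondrial transcripts are processed, spliced and edited by imported proteins, and their amount depends on stability as well as on transcription. Pi is a substrate of the mitochondrial ATP synthase, and Pi-starved plant roots are known for changes in respiration.

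Only 6 members carried a gene name. The genes nad4, nad4L, nad7 and nad9 encode subunits of complex I, which passes electrons from NADH into the respiratory chain. The gene cox2 encodes a subunit of complex IV, the terminal oxidase, and ccmB (named ccb206 in the platform annotation) encodes a protein that acts in the attachment of haem to c-type cytochromes. The other 23 members have only a locus ID in the sources used here and are called by it, with no role given. Of the 29 probe sets 27 have the plain suffix, and ATMG01000 and ATMG01020 have the suffix of sets whose probes can match several similar transcripts.

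A further 31 probe sets named a mitochondrial locus or symbol beside other loci, and 11 had a mitochondrial symbol but no mitochondrial locus ID (7 of these for nad1). These 42 sets are not members, and neither are the 72 sets for single plastid loci.

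The member means over the 24 arrays lay between 3.64 and 8.62 on the deposited log2 scale. Probe sets differ in how well they bind, so these levels give no order of transcript abundance. A mean of at least 6 was reached by 3 members (nad4, ATMG00660 and ATMG00690), against 55.7% of all probe sets. No detection calls were used here, so whether a dim member stood above background was not tested, and labelling with a one-cycle kit starts from the poly(A) tail, which plant mitochondrial transcripts mostly lack. The number of arrays limits the precision.

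The threshold was a limma Benjamini-Hochberg adjusted p under 0.05 over all probe sets. In a fit without the experiment as a block, no member passed it for minus Pi less plus Pi roots at any of the 4 times. Among all probe sets 0% passed at 0 h, 1.13% at 1 h, 9.65% at 6 h and 0.321% at 24 h. At 6 h, the time with the most calls in the series, 0 of 29 members also had an unadjusted p under 0.05, against 22.6% of all probe sets. That count was 1 at 0 h, 6 at 1 h and 3 at 24 h, against 1.32%, 10.4% and 8.82% of all. The smallest adjusted p over the members was 1 at 0 h, 0.185 at 1 h, 0.385 at 6 h and 0.449 at 24 h, and in the authors' deposited table it was 1.00, 0.186, 0.385 and 0.450. Tests, SEs and intervals are from the fit without the block unless a block is named. With the experiment as a block, 1 of 29 members passed at 1 h and 1 at 24 h, where 3.97% and 4.01% of all probe sets did.

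No member differed 2-fold between minus Pi and plus Pi roots at any time. The 95% interval of the difference lay inside 2-fold in both directions for 27 of 29 members at 0, 1 and 6 h and for 26 at 24 h, against 89.5%, 87.2%, 81.0% and 85.3% of all probe sets. The widest interval was that of ATMG00630, with -2.07 to 0.54 at 24 h. Its difference there was -0.77, with the minus Pi array lower in 3 of 3 experiments. The interval is from the fit without the block, and 71.6% of the variance of this locus lay between experiments.

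**Figure D1:**
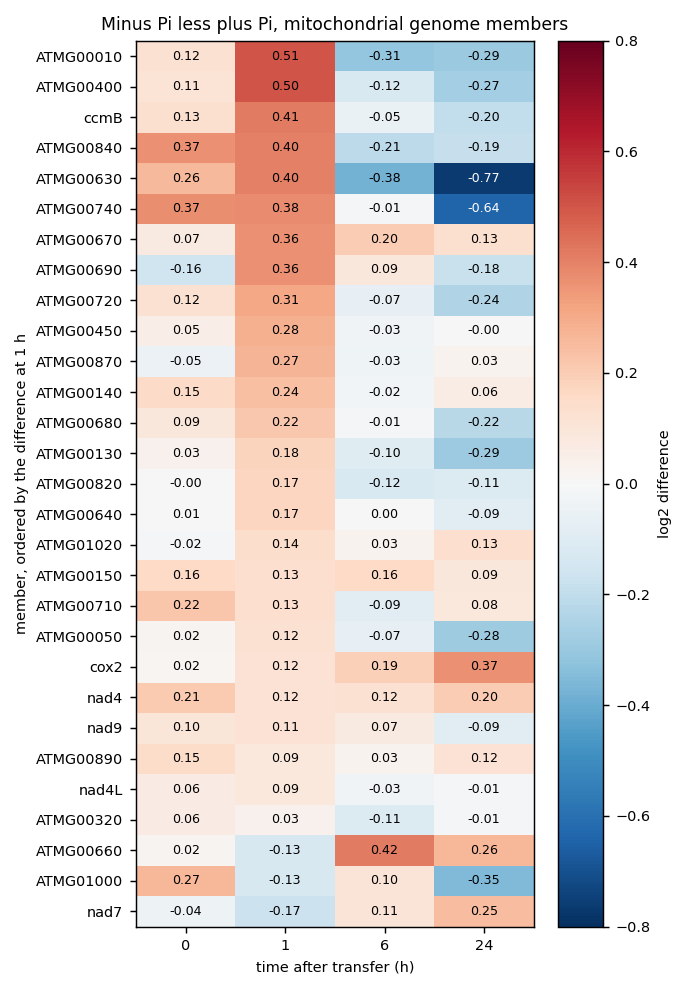
Difference between minus Pi and plus Pi roots (log2, 3 arrays per group) for the 29 members, in rows ordered by the 1 h value, at 0, 1, 6 and 24 h after transfer. The 1 h column holds 26 positive values and the 24 h column 11, and none of the cells passed the threshold without the experiment as a block.

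For nad4, the gene of a core membrane subunit of complex I, the minus Pi roots at 6 h had log2 values of 8.53, 8.65 and 8.94 in experiments 1 to 3, against 8.38, 8.62 and 8.75 in plus Pi roots. The groups overlapped, and in each experiment the minus Pi array was the higher by a small step. The difference was 0.12 (SE 0.303, 95% interval -0.51 to 0.76, limma adjusted p = 0.899). At 0, 1 and 24 h it was 0.21, 0.12 and 0.20.

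For nad7, another complex I subunit gene, minus Pi roots at 6 h had 4.05, 4.63 and 4.67, against 4.19, 4.34 and 4.50 in plus Pi roots. The groups overlapped, and experiment 1 ran the opposite way to experiments 2 and 3. The difference was 0.11 (SE 0.175, 95% interval -0.26 to 0.47, limma adjusted p = 0.834). Without the minus Pi array of experiment 3 it was -0.00399. At 24 h nad7 was at 4.30, 4.61 and 4.48 in minus Pi roots and 4.11, 4.11 and 4.44 in plus Pi roots, a difference of 0.25 (adjusted p = 0.776, limma).

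At 0 and 1 h the nad7 differences were -0.04 and -0.17. Among the remaining complex I genes, differences for nad9 were 0.10, 0.11, 0.07 and -0.09 at 0, 1, 6 and 24 h, and those for nad4L were 0.06, 0.09, -0.03 and -0.01. The SE was 0.267 for nad9 and 0.197 for nad4L.

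For cox2 the minus Pi roots at 6 h had 5.16, 5.38 and 6.12, against 5.33, 5.11 and 5.65 in plus Pi roots. Both groups spanned more between experiments than the difference of their means, 0.19 (SE 0.290, 95% interval -0.42 to 0.80, limma adjusted p = 0.811). The cox2 differences at 0, 1 and 24 h were 0.02, 0.12 and 0.37, all above 0, and none passed. At 24 h the minus Pi values were 5.36, 5.59 and 5.91 and the plus Pi values 5.42, 4.999 and 5.33, with an overlap and with experiment 1 going the other way.

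For ccmB the values at 1 h were 5.84, 4.97 and 5.47 in minus Pi roots, against 4.97, 4.83 and 5.24 in plus Pi roots. The minus Pi array was higher in 3 of 3 experiments while the groups overlapped. The difference was 0.41 (SE 0.198, 95% interval -0.00 to 0.83, limma adjusted p = 0.486). At 6 h ccmB had 5.18, 5.29 and 4.90 in minus Pi roots and 5.24, 4.85 and 5.42 in plus Pi roots, a difference of -0.05 (adjusted p = 0.945, limma). At 24 h the difference was -0.20, with the minus Pi array lower in 3 of 3 experiments.

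**Figure D2:**
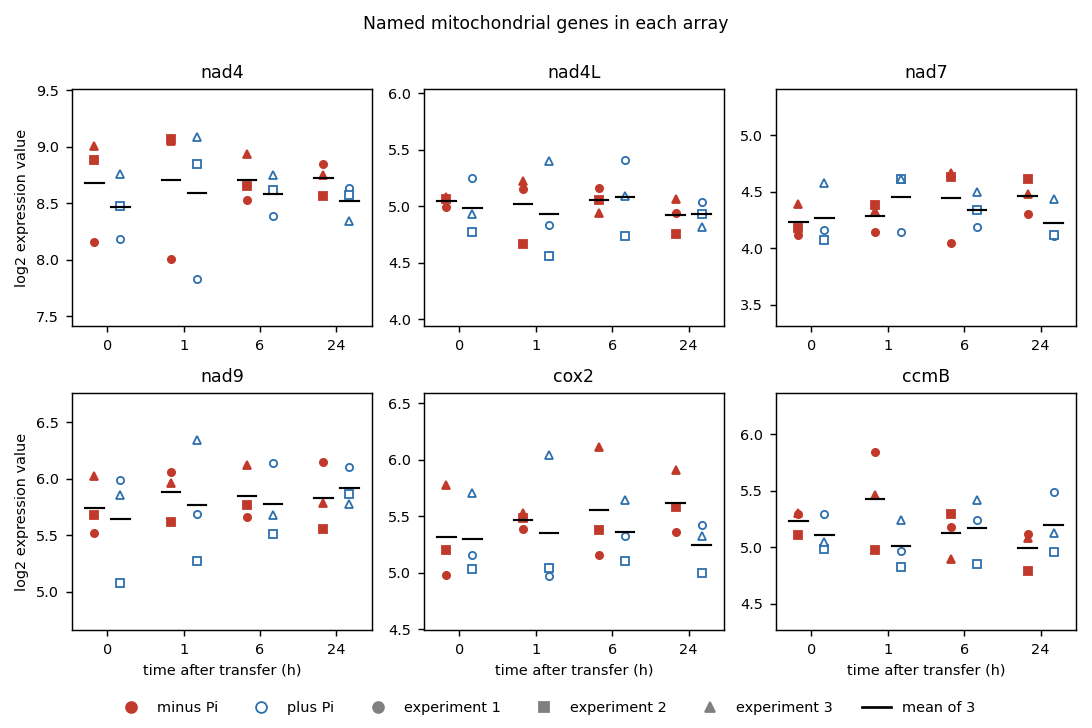
Log2 expression values of the 6 named mitochondrial genes in each array, against time after transfer, with minus Pi arrays as filled red and plus Pi arrays as open blue symbols, a symbol shape for each of the 3 experiments and a black line for the mean of 3. In every panel and at every time the ranges of the 2 groups overlap, as for cox2 at 6 h with 5.16 to 6.12 in minus Pi and 5.11 to 5.65 in plus Pi roots.

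Over these 6 genes and 4 times the 24 Pi differences lay between -0.20 and 0.41, and 17 of them were above 0. In none of the 24 were minus Pi and plus Pi arrays fully separated.

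Full separation of the arms was found among the loci without a name. At 1 h, 8 of 29 members had all minus Pi values above all plus Pi values, against 6.36% of all probe sets, and all 8 were unnamed loci (ATMG00010, ATMG00130, ATMG00400, ATMG00680, ATMG00690, ATMG00710, ATMG00720 and ATMG00840). None was fully separated in the other direction, against 6.48%. At 24 h, 3 members (ATMG00130, ATMG00680 and ATMG00720) had all minus Pi values below all plus Pi values, against 8.44% of all, and at 6 h ATMG00660 was fully separated upward, against 11.0%.

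ATMG00010 had 6.29, 5.83 and 5.67 in minus Pi roots at 1 h, against 5.41, 5.48 and 5.39 in plus Pi roots. Every minus Pi array was above every plus Pi array, by 0.51 on average (SE 0.192, 95% interval 0.10 to 0.91). The limma adjusted p was 0.308, and with the experiment as a block it was 0.0258. The difference was 0.32 when experiment 1 was left out. At 6 h the order turned, with 5.59, 5.49 and 5.23 in minus Pi roots against 5.92, 5.72 and 5.58 in plus Pi roots. The 6 h groups overlapped narrowly, and the minus Pi array was the lower in 3 of 3 experiments. The difference was -0.31 (SE 0.192, limma adjusted p = 0.385, and 0.0777 with the experiment as a block).

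ATMG00740 had 4.62, 3.94 and 4.04 in minus Pi roots at 24 h, against 5.46, 4.75 and 4.31 in plus Pi roots. The minus Pi array was lower in 3 of 3 experiments, while the groups overlapped because the locus differed between experiments, with means over the 8 arrays of 5.13, 4.37 and 4.24. The difference was -0.64 (SE 0.404, limma adjusted p = 0.726, 0.0436 with the experiment as a block and 0.128 as a random block). Without the plus Pi array of experiment 1 it was -0.33.

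ATMG00720, which had the smallest p of any member at 1 h, had 4.21, 4.22 and 3.95 in minus Pi roots and 3.72, 3.85 and 3.89 in plus Pi roots. The groups were fully separated, with a difference of 0.31 (SE 0.098, limma adjusted p = 0.185). At 24 h it had 3.82, 3.83 and 3.89 in minus Pi roots against 4.15, 4.03 and 4.07 in plus Pi roots, fully separated the other way by -0.24 (adjusted p = 0.449, limma). ATMG00640 at 6 h had 4.95, 4.92 and 5.13 in minus Pi roots and 4.92, 4.78 and 5.30 in plus Pi roots, a difference of 0.00.

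**Figure D3:**
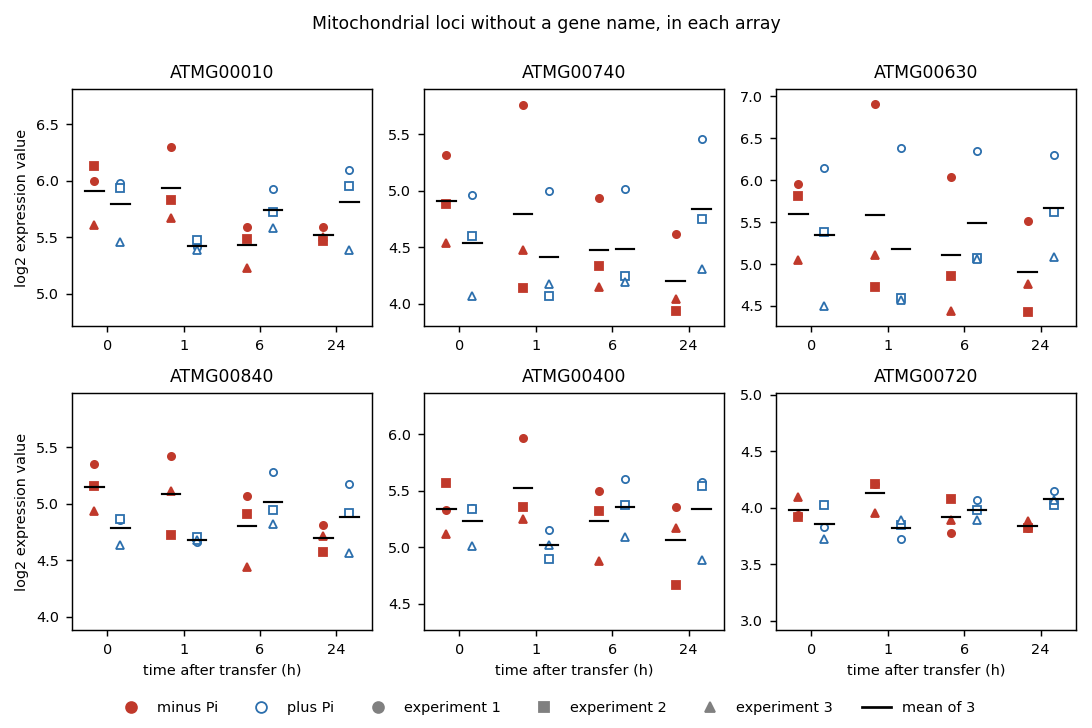
Log2 expression values of 6 mitochondrial loci without a gene name in each array, against time after transfer, drawn as for the named genes, the loci being chosen after their values were seen. At 1 h all 3 minus Pi arrays of ATMG00010 lie at 5.67 or above and all 3 plus Pi arrays at 5.48 or below. For ATMG00630 the circle of experiment 1 is the highest of each group, by little in minus Pi roots at 0 h (5.95 against 5.81).

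Before any Pi had been withheld for a length of time, small differences between the arms were seen, none of which passed. Of all probe sets 1.32% had an unadjusted p under 0.05 (limma) at that time. The loci given here are the 3 members with the smallest p. At 0 h, ATMG00710 had 4.18, 4.28 and 4.54 in minus Pi roots and 4.10, 4.08 and 4.14 in plus Pi roots, and ATMG00840 had 5.36, 5.16 and 4.94 against 4.85, 4.86 and 4.64 in plus Pi roots. Both loci were fully separated upward (2 of 29 members, against 2.37% of all, with none downward, against 2.08%), by 0.22 and 0.37 on average, with a limma adjusted p of 1 each. ATMG00890 was at 3.90, 3.81 and 4.03 in minus Pi roots against 3.69, 3.81 and 3.82 in plus Pi roots.

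The members leaned to one side at the early times. The median Pi difference over the 29 members was 0.09 at 0 h, 0.17 at 1 h, -0.02 at 6 h and -0.09 at 24 h, against medians of all probe sets of -0.00 at 0, 1 and 24 h and -0.02 at 6 h. Values above 0 were held by 24 members at 0 h, 26 at 1 h, 12 at 6 h and 11 at 24 h, against 48.5%, 49.1%, 45.9% and 49.2% of all probe sets. The lean at 1 h was thus present at 0 h too, and the change of the Pi difference, 1 h less 0 h, had a median of 0.10. That median rested on experiment 1, since it was -0.00665 without it, and 0.0269 without the plus Pi array at 1 h of that experiment alone. The median at 24 h was 0.0254 without the 3 arrays whose numbers lie outside their run.

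Experiments did not carry these leans alike. At 1 h the member medians were 0.32, 0.22 and 0.05 in experiments 1 to 3, with 28, 25 and 18 members above 0. At 6 h they were -0.14, 0.15 and -0.10, and at 24 h they were -0.11, -0.13 and 0.11, so the direction at these times differed between experiments. At 0 h they were 0.01, 0.15 and 0.15.

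**Figure D4:**
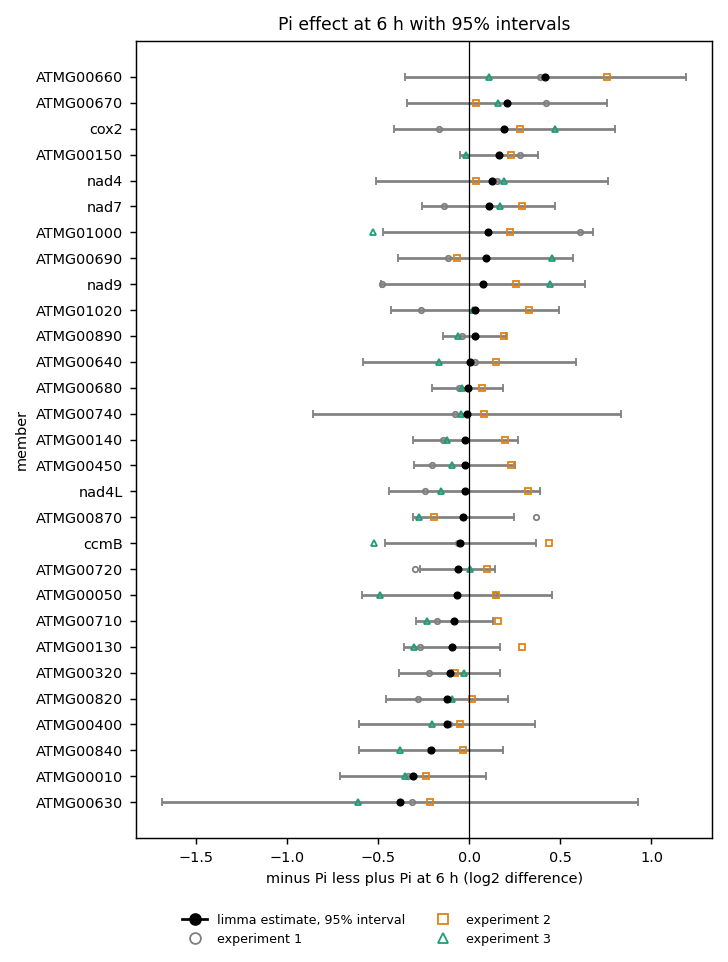
Minus Pi less plus Pi roots at 6 h (log2 difference) for each member, with the limma estimate and its 95% interval in black and the value of each experiment as an open symbol. All 29 intervals cross 0, from ATMG00660 with an estimate of 0.42 to ATMG00630 with -0.38. They are from the fit without the experiment as a block, and intervals with the block are not drawn.

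In minus Pi roots, no member passed against 0 h at 1, 6 or 24 h, where 1.01%, 18.4% and 2.77% of all probe sets passed. The member medians were 0.05, -0.07 and -0.07, and the number of members above 0 was 18, 10 and 8 of 29. An unadjusted p under 0.05 was reached by 0, 1 and 1 members, against 8.92%, 29.6% and 14.4% of all. The smallest adjusted p at 6 h was 0.0939, for ATMG00010, which had 5.59, 5.49 and 5.23 at 6 h against 6.00, 6.13 and 5.61 at 0 h. All its 6 h arrays lay below all its 0 h arrays, by -0.48 on average (SE 0.192, limma). The ranges came close, at 5.59 and 5.61, and 16.8% of all probe sets were fully separated downward between these times.

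At 24 h in minus Pi roots 4 members had all arrays below the 0 h arrays (ATMG00010, ATMG00130, ATMG00720 and ATMG00840), against 8.96% of all probe sets. ATMG00840 had 4.81, 4.57 and 4.72 at 24 h against 5.36, 5.16 and 4.94 at 0 h, a difference of -0.45 (SE 0.188, limma adjusted p = 0.261). ATMG00740 differed by -0.71 and ATMG00630 by -0.70 from 0 h. Among the named genes the differences of 24 h from 0 h in minus Pi roots were 0.30 for cox2, 0.24 for nad7, 0.09 for nad9, 0.04 for nad4, -0.13 for nad4L and -0.24 for ccmB.

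In plus Pi roots, transferred in the same way, no member passed either, where 0.356%, 2.34% and 0.497% of all probe sets passed at 1, 6 and 24 h against 0 h. The member medians were -0.05, 0.07 and 0.05, with 10, 20 and 23 members above 0. An unadjusted p under 0.05 was reached by 0, 0 and 1 members, against 4.65%, 11.2% and 3.54% of all. ATMG00010 was at 5.41, 5.48 and 5.39 at 1 h against 5.98, 5.94 and 5.46 at 0 h, a difference of -0.37, while its minus Pi level differed by 0.02 between the same times, and neither passed.

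The difference of Pi effects between times was tested directly. No member passed for 1, 6 or 24 h less 0 h, for 6 h less 1 h or for 24 h less 6 h, where 0.101%, 1.87%, 0.127%, 1.47% and 0.259% of all probe sets passed. The member medians of these 5 differences were 0.10, -0.10, -0.10, -0.22 and -0.07. An unadjusted p under 0.05 was reached by 0, 2, 2, 3 and 0 members, against 4.06%, 15.2%, 7.53%, 14.2% and 9.42% of all.

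The whole experiment was run 3 times, and the replicate number in the labels was taken as the run, which pairs the arrays. A fit with the experiment as a block gave 8 calls over 3 unnamed loci. ATMG00010 passed for the Pi difference at 1 h (0.51, adjusted p = 0.0258, limma), for 6 h less 0 h in minus Pi roots (-0.48, adjusted p = 0.00561), for 24 h less 0 h in minus Pi roots (-0.39, adjusted p = 0.0471) and for the Pi difference at 6 h less 1 h (-0.82, adjusted p = 0.00798). ATMG00740 passed for the Pi difference at 24 h (-0.64, adjusted p = 0.0436), for 24 h less 0 h in minus Pi roots (-0.71, adjusted p = 0.0129) and for the Pi difference at 24 h less 0 h (-1.01, adjusted p = 0.0414, limma). ATMG00840 passed for 24 h less 0 h in minus Pi roots (-0.45, adjusted p = 0.0461, limma). With the experiment as a random block 4 of the 8 calls were lost, those of ATMG00740 for the Pi difference at 24 h and at 24 h less 0 h and those of ATMG00840 and ATMG00010 for 24 h less 0 h in minus Pi roots, at adjusted p of 0.128, 0.114, 0.0524 and 0.0655. Without experiment 2 the ATMG00010 difference at 24 h less 0 h in minus Pi roots was -0.26.

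These blocked counts were near the background or below it. With the block 1 of 29 members passed for the Pi difference at 1 h and 1 at 24 h, where 3.97% and 4.01% of all probe sets did, and none at 6 h, where 22.5% did. In minus Pi roots 1 passed at 6 h and 3 at 24 h against 0 h, where 32.1% and 10.5% did. For the changes of the Pi difference 1 passed at 24 h less 0 h and 1 at 6 h less 1 h, where 1.93% and 9.05% did, and none at 24 h less 6 h, where 3.23% did. In plus Pi roots none passed, where 6.31% of all did at 6 h.

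Between-experiment variation was the larger part of the spread for many members. The experiment held a median of 34.8% of a member's variance over the 24 arrays, against 23.8% over all probe sets, and the 8 groups held 22.6%, against 37.9%. ATMG00630 had the largest share between experiments, 71.6%, with means of 6.20, 5.06 and 4.82 in experiments 1 to 3. Among the named genes the share was 58.4% for cox2 (5.22, 5.23 and 5.76) and 43.4% for nad4 (8.32, 8.71 and 8.84). The SD within a group had a median of 0.250 over the members and 0.190 over all probe sets.

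Members moved together from array to array only in part. Over the 406 pairs of members, with each experiment's mean removed, the median Pearson r over the 24 arrays was 0.21, 13 pairs reached 0.7 and 97 were below 0. The closest pairs were ATMG00740 with ATMG00630 (r = 0.86) and ATMG00740 with ATMG00010 (r = 0.79), and ATMG00400 and ATMG00840 also reached 0.7 with ATMG00740 and ATMG00010. In this set ccmB was the only named gene, at r = 0.75 with ATMG00840. The gene nad7 correlated negatively with this set, at r = -0.75 with ATMG00630. These points share arrays, labelling and scaling.

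Other array measures moved with the median over the members. The median over the 29 members on an array lay at 4.98, 5.07 and 4.94 in minus Pi roots at 0 h, against 4.85, 4.73 and 4.57 in plus Pi roots, and at 6 h it lay at 4.95, 4.85 and 4.44 in minus Pi roots, against 5.02, 4.74 and 4.82 in plus Pi roots. Over the 24 arrays it correlated at r = 0.78 with the array's 5S rRNA control probe set (0.75 with experiment means removed), at 0.74 with the median of the 72 plastid probe sets and at -0.61 with the difference between 3′ and 5′ actin control probe sets (-0.45 with experiment means removed). The median on an array is the value of the member ranked in the middle, so it need not stand for all 29. With experiment means removed, single members had r with 5S from 0.71 (ATMG00840) to -0.57 (nad7). Among the other named genes it was 0.52 for ccmB, 0.49 for nad4L, 0.00 for nad9, -0.01 for nad4 and -0.45 for cox2. With the actin difference r ran from -0.71 (ATMG00630) to 0.60 (nad4). The part of these measures in the results was not tested.

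The 3 arrays with the lowest 5S signal were minus Pi arrays at 1, 6 and 24 h, from experiments 2, 3 and 2, with 5.83, 5.52 and 5.99 where all 24 arrays ranged from 5.52 to 9.31. Their member medians were 4.71, 4.44 and 4.57. Low member medians were also found at higher 5S signal. In plus Pi roots they were 4.57 at 0 h (experiment 3), 4.59 and 4.61 at 1 h (experiments 2 and 3) and 4.59 at 24 h (experiment 3). The 5S values of these arrays were 7.06, 7.89, 8.28 and 8.04. In 10 of 12 pairs of arrays (1 per experiment and time) the member median and the 5S signal differed in the same direction between minus Pi and plus Pi roots.

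**Figure D5:**
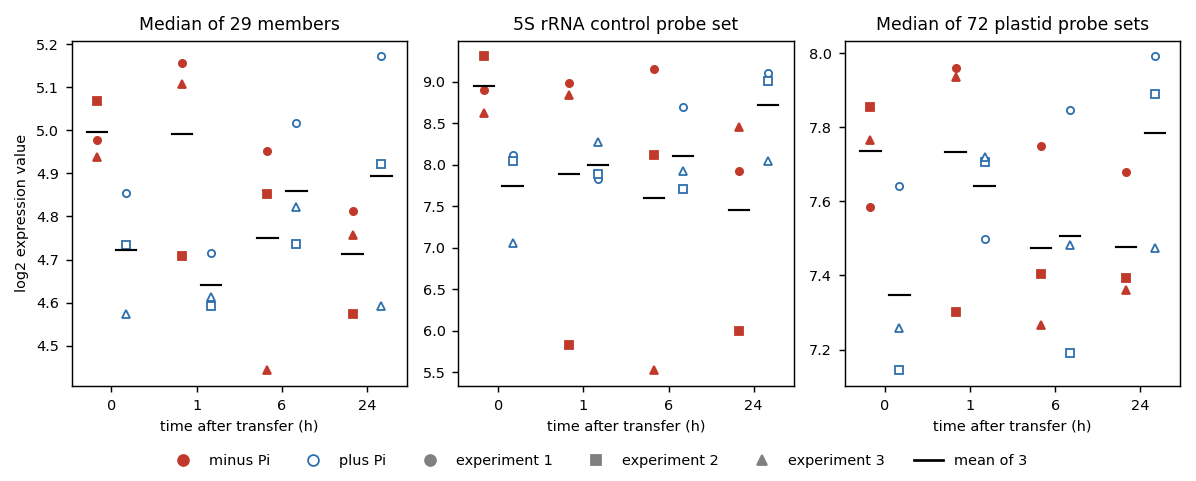
Median log2 value of the 29 members, log2 value of the 5S rRNA control probe set and median of 72 plastid probe sets in each array, against time after transfer, drawn as for the named genes. The arrays with the lowest 5S values (5.83 at 1 h, 5.52 at 6 h and 5.99 at 24 h, all minus Pi) have member medians of 4.71, 4.44 and 4.57. Their means over the 29 members, not drawn, are 5.06, 4.94 and 4.86. The plus Pi arrays of experiments 2 and 3 at 1 h, with 5S values of 7.89 and 8.28, have member medians of 4.59 and 4.61.

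For the other organelle probe sets the counts of calls were also 0 in the Pi differences. None of the 11 sets with a mitochondrial symbol alone passed for a Pi difference, with medians of 0.12, 0.20, 0.12 and -0.10 at 0, 1, 6 and 24 h. None of the 31 sets that name several loci passed, with medians of 0.21, 0.19, 0.02 and -0.17. None of the 72 plastid sets passed, with medians of 0.26, 0.03, -0.05 and -0.23.

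Nuclear genes whose products serve the mitochondrial genome or the respiratory chain gave calls at 6 h, a time at which 9.65% of all probe sets and none of the members passed. Of 12 measured nuclear genes (22 listed) for the processing and transcription of mitochondrial RNA, 0 were higher and 2 lower without Pi at 6 h, with a median of -0.20. MORF1, an organellar RNA editing factor, differed by -0.51 (SE 0.108, limma adjusted p = 0.00619), at 7.93 ± 0.0555 in minus Pi roots and 8.44 ± 0.0389 in plus Pi roots (SD, n = 3 each). AT5G14580 differed by -0.91 (SE 0.212, limma adjusted p = 0.0109). With the experiment as a block, where 22.5% of all probe sets passed, 5 were lower, among them BIR6, which acts in the splicing of an nad7 intron, by -0.65 (limma adjusted p = 0.0631, and 0.0190 with the block).

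Of 23 measured nuclear genes (35 listed) of the respiratory chain and ATP synthase, 1 was higher and 4 lower at 6 h (1 and 6 with the block), with a median of -0.12. CYTC-2, a cytochrome c gene, was higher by 0.73 in minus Pi roots (SE 0.134, limma adjusted p = 0.00243), with levels of 8.71 ± 0.326 there and 7.99 ± 0.0517 with Pi (SD, n = 3 each). In plus Pi roots it differed by -0.84 between 6 h and 0 h (limma adjusted p = 0.00114). The complex I subunit genes EMB1467 and CI51 differed by -0.31 (SE 0.0840) and -0.30 (SE 0.0834), at limma adjusted p of 0.0245 and 0.0281, and AT1G80230 and AT3G15640 differed by -0.38 and -0.37.

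In minus Pi roots at 6 h against 0 h, where 18.4% of all probe sets passed, 2 of the 12 RNA genes were lower (AT5G14580 by -0.85 and PPR336 by -0.81), and 4 of the 23 respiratory genes were lower, by between -0.35 and -0.28. None of either list was higher. With the block, where 32.1% of all passed, 3 RNA genes were lower and 2 higher, and 9 respiratory genes were lower. No gene of these lists passed for the Pi difference at 0, 1 or 24 h, apart from CYTC-2 at 1 h with the block (0.53, limma adjusted p = 0.0358, and 0.0659 without it). Of 7 listed genes for mitochondrial DNA upkeep 1, OSB1, was measured, and it differed by 0.04 at 6 h. Whether the nuclear genes and the members differ in their response was not tested.

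The array medians lay between 6.34 and 6.45. Of 9 root marker genes 5 were measured, among them the root hair expansin genes EXPA7 (5.37 to 8.38) and EXPA18 (5.92 to 8.58). The mean over all 5 root genes at 24 h was between 5.42 and 6.27 on minus Pi arrays and between 6.81 and 7.46 on plus Pi arrays. These 5 include IRT1, which had the widest range (3.55 to 9.34), and the part of this mean in the members' values was not tested. The mean over 5 measured leaf photosynthesis markers (16 listed) ranged from 5.19 to 5.79 over minus Pi arrays and from 5.01 to 6.78 over plus Pi arrays, and was highest on a plus Pi array at 6 h. In bulk roots, fewer cells of a type and less RNA per cell cannot be told apart.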

How the data were processed

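The deposited values are log2 expression per probe set of 24 one-colour Affymetrix arrays of root RNA. The sources used here do not give how the authors summarised and normalized them, and limma is named, with no version, per the submitters' processing notes. The authors' deposited comparison table also holds log2 differences, p-values and a score. Its locus column named all 29 members. The 64 control probe sets were left out of the tests. No sequence or coordinate was used.

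A mean for each of 8 groups was fitted to 24 arrays (16 residual degrees of freedom) with R 4.3.3 and limma 3.58.1 and tested with empirical Bayes moderation and Benjamini-Hochberg adjustment over 22746 probe sets per contrast, at 0.05. The code of the fit without the block was run on simulated data drawn with no difference between experiments. The fit with the block was not tested in this way. Experiment numbers were taken to pair the arrays: deviations from group means correlated at a mean r of 0.554 within experiments (lowest 0.228 among pairs compared at a time). The fixed block left 14 degrees of freedom. The labels do not say whether arrays of a group came from separate RNA pools beyond the run.

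The members and lists were chosen with earlier results of these data known. Any member could be named. Values per array were given for members called in any contrast with a block, for the smallest p per role at 6 h (roles from a hand-written list of loci, by which ATMG00640 was picked, though no source used here annotates it), and for the 3 smallest p at 0 h. A few more members were added after their values were seen (ATMG00720, nad4, ATMG00630 and those of the plots). From the nuclear lists called genes were named, plus BIR6.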

Additional observations from a re-analysis of the deposited data

Results flagged for a closer look

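Differences of the Pi effect between times were flagged for 7 members. With the experiment as a block the Pi difference changed by -1.01 for ATMG00740 at 24 h less 0 h and by -0.82 for ATMG00010 at 6 h less 1 h (limma adjusted p = 0.0414 and 0.00798). As a random block the adjusted p was 0.114 and 0.0111. Without the block neither passed (adjusted p = 0.752 and 0.152). With the block 1 of 29 members passed in each of these contrasts, where 1.93% and 9.05% of all probe sets did.

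In 6 members the minus Pi array was higher at 1 h and lower at 24 h in 3 of 3 experiments, a pattern picked after the values were seen. It was held by 20.7% of the members and by 2.96% of all 22746 probe sets (673). Members share arrays and some of these 6 moved together (ATMG00740 with ATMG00630 at r = 0.86), so they are not independent cases. The Pi difference at 24 h less that at 1 h was -1.17 for ATMG00630, -1.02 for ATMG00740, -0.61 for ccmB, -0.55 for ATMG00720, -0.47 for ATMG00130 and -0.44 for ATMG00680. That difference between 24 h and 1 h was not tested. ATMG00740 is in both groups.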

How the results depend on the processing

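The number of members called was 0 in each of 15 contrasts under the alternatives run, apart from those given here: fitting only the arrays compared, median centring, quantile normalization, the filter at a mean of 6 (which left 3 members), trended robust moderation, plain probe sets only, and leaving out the 3 arrays numbered out of their run or the 2 with a second-scan suffix. With the replicate block the counts were 1 for the Pi difference at 1 h, 1 at 24 h, 1 and 3 for 6 and 24 h less 0 h in minus Pi roots, 1 for the Pi difference at 24 h less 0 h and 1 at 6 h less 1 h. As a random block (correlation 0.384) it gave 1 at 1 h, 1 and 1 in minus Pi roots at 6 and 24 h and 1 at 6 h less 1 h. The block changed no other call of a member. Leaving out 1 experiment or array gave 0 to 1 calls, the 1 being ATMG00010 at 6 h less 0 h in minus Pi roots without experiment 3 (-0.53, adjusted p = 0.0387, limma) or without the minus Pi 0 h array of experiment 3 (-0.63, adjusted p = 0.0379). With the block and 1 experiment left out, chosen after seeing the data, ATMG00740 and ATMG00840 passed in no contrast and ATMG00010 passed in 1 contrast without experiment 1, 0 without experiment 2 and 4 without experiment 3.

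Small Pi differences at 6 h changed sign: without the 2 second-scan arrays, or the minus Pi array of experiment 3 alone, ATMG00640 was at -0.0641, nad7 at -0.00399, ccmB at 0.0624 and cox2 at -0.0906. Over the leave-one-out fits ATMG00640 ranged from -0.11 to 0.153, ccmB from -0.294 to 0.186, nad7 from -0.00399 to 0.304 and cox2 from -0.0906 to 0.389. The causes were not tested.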
